A study of Mus musculus with 12 samples.

Results

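The genes of the major histocompatibility complex (MHC) and of antigen presentation were followed in the colons of mice that lack thrombospondin-1 (TSP-1) and of wild-type (WT) mice. The members were the array probes with exactly 1 gene symbol, where that symbol began with H2- or was Cd74, B2m, Ciita, Nlrc5, Tap1, Tap2, Tapbp, Psmb8, Psmb9 or Psmb10. This gave 57 of 28853 probes, for 39 of the 19938 genes with such a probe: 10 class II probes, 19 class Ib probes, 1 class Ia probe, 26 probes for class I loading and its regulators, of which 19 were Nlrc5 probes, and 1 probe for H2-Ke6. RefSeq placed 34 of the 39 genes on chromosome 17, where the mouse MHC lies. H2-K1, H2-D1, H2-Q6 and H2-DMb1 were measured only on probes with several symbols and were therefore not among the members, so the 1 class Ia probe was that of H2-K2, a transcribed pseudogene.

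MHC class I molecules carry peptides from inside the cell, cut by the immunoproteasome and moved into the endoplasmic reticulum by the TAP transporter, and are shown to CD8 T cells on nearly all nucleated cells. MHC class II molecules carry peptides from engulfed material to CD4 T cells and are made mainly by B cells, dendritic cells and macrophages, and by gut epithelium during inflammation. The coactivator CIITA turns on the class II genes, and NLRC5, a related protein, acts on class I genes.

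Each of 12 C57BL/6 mice gave colon RNA for 1 Affymetrix array, and the mice formed 4 groups of 3: TSP-1-/- mice given AOM/DSS, WT mice given AOM/DSS, TSP-1-/- mice given water and WT mice given water. The male AOM/DSS mice were 7 weeks old at the start, received 1 injection of the mutagen azoxymethane (AOM, 10 mg/kg) and then 4 cycles of 7 days of 1.5% dextran sulfate sodium (DSS), which injures the colonic epithelium, and were killed 15 weeks after AOM. The TSP-1-/- mice carry a targeted germline mutation that leaves the gene transcribed, so the Thbs1 probe, at 0.81, 0.85 and 0.93 on the TSP-1-/- AOM/DSS arrays, against 0.27, -0.16 and -0.07 on the WT AOM/DSS arrays, does not check the labels (log2 difference 0.85, adjusted p = 0.0730). The methods name both normal and diseased colonic tissue as the source of the RNA, and the labels do not say how much tumor each sample held.

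All values are log2 values relative to a baseline of each probe, so they compare arrays within a probe and not 1 gene with another, and no marker can be read as present or absent. On the AOM/DSS arrays the baseline is the median of the 12 arrays, while the water arrays are on another baseline and carry the protocol text of an earlier DSS study, so the genotypes were compared within AOM/DSS and within water. TSP-1-/- AOM/DSS replicate 3 stood apart before any member was considered, with an SD over all probes of 0.753 against 0.293 to 0.453 on the other 11 arrays, and with a median of 5.48 over 8 pancreas genes, against -0.22 to 0.0050 on the other 5 AOM/DSS arrays. Calls rest on limma fitted to all 12 arrays, with a Benjamini-Hochberg adjusted p under 0.05 over all probes and at least a 2-fold difference. In bulk RNA, fewer cells of a type and less RNA per cell cannot be told apart.

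The promoters were searched for 1 pair of motifs. Class II promoters are known for an X box, bound by the RFX complex, followed by a Y box, an inverted CCAAT bound by NF-Y, and CIITA is recruited to the factors bound there. RefSeq promoters of 300 bases, 250 before to 50 after the start site, were at hand for 6 of the 10 class II genes. GCAAC, a core of the X box, followed after 23 to 33 letters by ATTGG, the inverted CCAAT, was found in 5 of these 6 (H2-Aa, H2-Eb1, H2-Eb2, H2-Oa and H2-Ob, but not H2-DMa), with both strands searched, and in 0 of the 15 class Ib genes and 0 of the 6 class I loading genes with a promoter. The spacing was set after the sequences were seen, so the counts by class are no test of a class II feature. ATTGG, counted whether or not the spaced GCAAC was present, was not particular to class II. It stood in 6 of the 6 class II, 13 of the 15 class Ib and 4 of the 6 class I loading genes. Over all 32851 promoters, 0.487% held this pair, while any ATTGG stood in 37.4% on either strand and any GCAAC in 35.2%. The windows are shown because these 5 genes include the 2 class II genes called below and the gene with the widest class II difference. Capitals mark the GCAAC and the ATTGG, and coordinates are from GRCm38.p6.
H2-Aa (chr17:34287847-34287919, minus strand): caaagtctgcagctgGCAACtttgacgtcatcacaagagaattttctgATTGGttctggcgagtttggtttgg
H2-Eb1 (chr17:34305761-34305832, plus strand): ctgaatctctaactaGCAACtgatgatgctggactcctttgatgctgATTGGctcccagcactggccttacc
H2-Eb2 (chr17:34325528-34325599, plus strand): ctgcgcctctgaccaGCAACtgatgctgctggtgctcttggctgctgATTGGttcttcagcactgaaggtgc
H2-Oa (chr17:34092288-34092360, plus strand): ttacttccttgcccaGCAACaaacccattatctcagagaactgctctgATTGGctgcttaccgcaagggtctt
H2-Ob (chr17:34238803-34238872, plus strand): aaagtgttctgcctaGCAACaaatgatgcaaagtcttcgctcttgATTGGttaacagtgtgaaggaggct
Between 25 (H2-Ob) and 28 letters (H2-Aa and H2-Oa) separate the pair, and the GCAAC starts between 76 bases (H2-Oa) and 132 bases (H2-Eb2) before the start site. A match is a description of letters and not a bound site.

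In AOM/DSS colons, the class II genes were the group with the largest median genotype difference among the classes examined. All 10 class II probes had a higher mean in TSP-1-/- than in WT, with a median log2 difference of 1.12 (range 0.54 to 2.05), against 0.13 over all probes. The test called 2 of the 10 higher, H2-Aa and H2-Eb2, and 0 lower. Over the array, 1.73% of probes were called higher in TSP-1-/- AOM/DSS colons and 1.05% lower. For 4 of the 10 (H2-Aa, H2-Ea, H2-Eb2 and Ciita) all 3 TSP-1-/- arrays lay above all 3 WT arrays, against 20.2% of all probes higher and 10.7% lower without overlap. A p without adjustment was under 0.05 for 8 of the 10, as it was for 9327 of the 28853 probes.

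Among the classical chains that form the peptide groove, H2-Aa (probe 10450154), the alpha chain of the I-A molecule, stood at 1.25, 0.64 and 2.13 on TSP-1-/- arrays 1, 2 and 3, against 0.05, -0.28 and 0.59 on WT arrays 1, 2 and 3. The groups did not overlap, but the lowest TSP-1-/- array lay close to the highest WT array. H2-Aa rose by log2 1.22 (SE 0.33, 2.33-fold, adjusted p = 0.0437). H2-Ab1 (probe 10444291), its beta chain partner, stood at 0.80, 0.29 and 1.43 in TSP-1-/- and at -0.08, -0.51 and 0.72 in WT. WT replicate 3 lay above TSP-1-/- replicate 2, and the log2 difference of 0.80 (SE 0.31, adjusted p = 0.108) did not pass. H2-Eb1 (probe 10444298), the beta chain of the I-E molecule, gave 1.19, 0.46 and 2.14 in TSP-1-/- and 0.32, -0.24 and 0.57 in WT, with a log2 difference of 1.04 (SE 0.35, adjusted p = 0.0709). H2-Ea (probe 10450161) encodes the I-E alpha chain in other strains and is disrupted in C57BL/6, and RefSeq lists it as a transcribed pseudogene. It had the smallest class II difference, 0.54 (SE 0.20, adjusted p = 0.0961), with values of 0.21, 0.34 and 0.63 in TSP-1-/- and -0.09, -0.11 and -0.23 in WT.

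H2-Eb2 (probe 10444306), a second E beta gene, had the larger of the 2 called differences. Its values were 1.75, 0.32 and 2.89 on the TSP-1-/- arrays, against -0.18, 0.22 and -0.67 on the WT arrays. TSP-1-/- replicate 2 stood only just above WT replicate 2, while the other TSP-1-/- arrays were far higher. H2-Eb2 rose by log2 1.86 (SE 0.47, 3.63-fold, adjusted p = 0.0386).

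The genes that serve class II molecules showed the same order of arrays. Cd74 (probe 10456005), the invariant chain that fills the groove until peptide is loaded, stood at 1.19, 1.02 and 2.30 in TSP-1-/- and at 0.40, -0.42 and 1.08 in WT. WT replicate 3 reached the level of TSP-1-/- replicates 1 and 2, and the difference of 1.15 (SE 0.38, adjusted p = 0.0715) did not pass. Ciita (probe 10433507), the class II transactivator, gave 0.91, 0.15 and 2.64 in TSP-1-/- and -0.33, -0.67 and 0.01 in WT. The groups did not overlap, and the log2 difference was 1.56 (SE 0.46, adjusted p = 0.0536). Ciita did pass without TSP-1-/- replicate 2 (2.11, adjusted p = 0.0131), after quantile normalization within each array set (1.11, adjusted p = 0.0302) and with p-values adjusted over probes of 1 symbol only (adjusted p = 0.0482). Without TSP-1-/- replicate 3 it did not pass (0.86, adjusted p = 0.0869), nor without WT replicate 3 (1.73, adjusted p = 0.125). Renewed quantile normalization of all 12 arrays gave 0.91 (adjusted p = 0.0700), again not passing. H2-DMa (probe 10444229), a chain of the catalyst that exchanges peptide in the groove, gave 0.57, 0.27 and 1.82 in TSP-1-/- and 0.24, -0.56 and 0.75 in WT, with a log2 difference of 0.75 (SE 0.38, adjusted p = 0.188).

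H2-Oa and H2-Ob, the 2 chains of H2-O, which restrains that catalyst and is known mainly from B cells and thymic epithelium, varied most between the TSP-1-/- mice. H2-Ob (probe 10444284) stood at 2.24, 0.15 and 4.22 on the TSP-1-/- arrays, against 0.46, -0.04 and 0.04 on the WT arrays. H2-Oa (probe 10444223) stood at 1.33, -0.52 and 3.17 in TSP-1-/- and at 0.20, 0.03 and 0.48 in WT. Both were high on TSP-1-/- replicates 1 and 3, while replicate 2 lay within the WT range for H2-Ob and below it for H2-Oa. With group SDs of 2.03 in TSP-1-/- and 0.27 in WT for H2-Ob (n = 3 each), its log2 difference of 2.05, the widest of the class, did not pass (SE 0.70, adjusted p = 0.0752), nor did that of H2-Oa (1.09, SE 0.63, adjusted p = 0.246). Without TSP-1-/- replicate 3 the H2-Ob difference was 1.05 (adjusted p = 0.188), less than the 1.24 of H2-Eb2. Without TSP-1-/- replicate 2 it was 3.08 (adjusted p = 0.0037) for H2-Ob and 2.01 (adjusted p = 0.0150) for H2-Oa, and both passed.

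**Figure D1:**
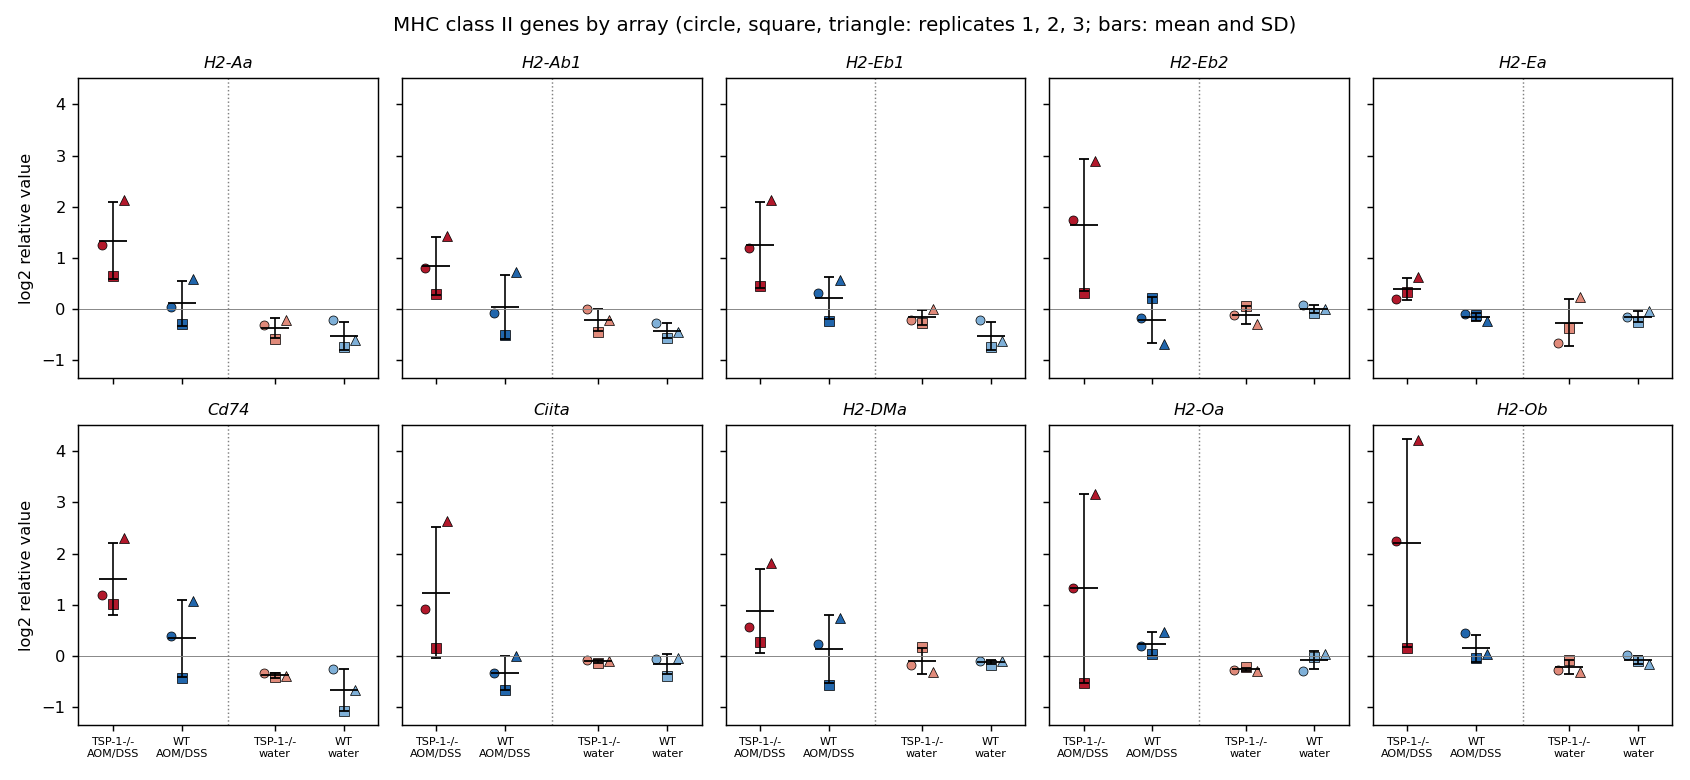
Log2 relative values (vertical axis) of the 10 class II genes on each array, in TSP-1-/- AOM/DSS, WT AOM/DSS, TSP-1-/- water and WT water colons; points are arrays, bars the mean and SD of 3 arrays, and the dotted line parts the AOM/DSS from the water arrays, which are on another baseline. TSP-1-/- AOM/DSS replicate 3 (triangles) is the highest AOM/DSS array in all 10 panels, and the water groups overlap in all 10.

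The spread among the TSP-1-/- mice followed the same order across the class. TSP-1-/- replicate 3 was the highest of the 6 AOM/DSS arrays for 10 of 10 class II probes, and replicate 2 was the lowest TSP-1-/- array for 9 of 10, with H2-Ea the exception. The median of the 10 probes was 1.19, 0.31 and 2.22 on TSP-1-/- arrays 1, 2 and 3, against 0.12, -0.26 and 0.52 on WT arrays 1, 2 and 3. Without TSP-1-/- replicate 3, the array with the high pancreas gene values, all 10 differences were still above 0 with a median of 0.68, and no member of any class was called. Adjusted p-values were then 0.120 for H2-Aa and 0.0915 for H2-Eb2.

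Markers of cells that make class II molecules were set beside these values, as medians over each list on TSP-1-/- arrays 1, 2 and 3 and WT arrays 1, 2 and 3. Calls within the lists stand beside 1.73% of all probes called higher and 1.05% called lower. The 9 B cell markers had medians of 2.47, -0.10 and 4.23 in TSP-1-/- and 0.22, -0.27 and -0.07 in WT, and 2 of 9 were called higher, Cd79a (log2 2.69, adjusted p = 0.0450) and Cd79b (log2 2.48, adjusted p = 0.0459), both of the B cell receptor. The 10 dendritic cell markers had medians of 0.46, 0.23 and 0.96 in TSP-1-/- and -0.26, -0.07 and -0.13 in WT, and 2 of 10 were called higher, Clec9a (log2 1.80, adjusted p = 0.0347) and Itgax (log2 1.20, adjusted p = 0.0206). The 10 macrophage markers had medians of 0.44, 0.28 and 1.01 in TSP-1-/- and -0.32, -0.38 and 0.07 in WT, with 1 of 10 called higher, Csf1r (log2 1.03, adjusted p = 0.0492). Cd163 of that list went the other way (log2 -0.85, adjusted p = 0.173), and Cd14 differed by 0.46 (adjusted p = 0.501). The B cell list median was high on TSP-1-/- replicates 1 and 3 alone. The medians of the dendritic cell and macrophage lists, though not every marker in them, were higher on all 3 TSP-1-/- arrays than on any WT array. The 10 T and NK cell markers reached 2.61 on TSP-1-/- replicate 3 and lay between -0.14 and 0.62 on the other AOM/DSS arrays, with none called, and the 11 colon epithelium markers had medians of 0.00, -0.01 and -0.64 in TSP-1-/- and 0.19, 0.01 and 0.18 in WT, with 1 of 11 called lower, Car1 (log2 -1.09, adjusted p = 0.0445). The part of these cells in the class II differences was not tested.

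**Figure D2:**
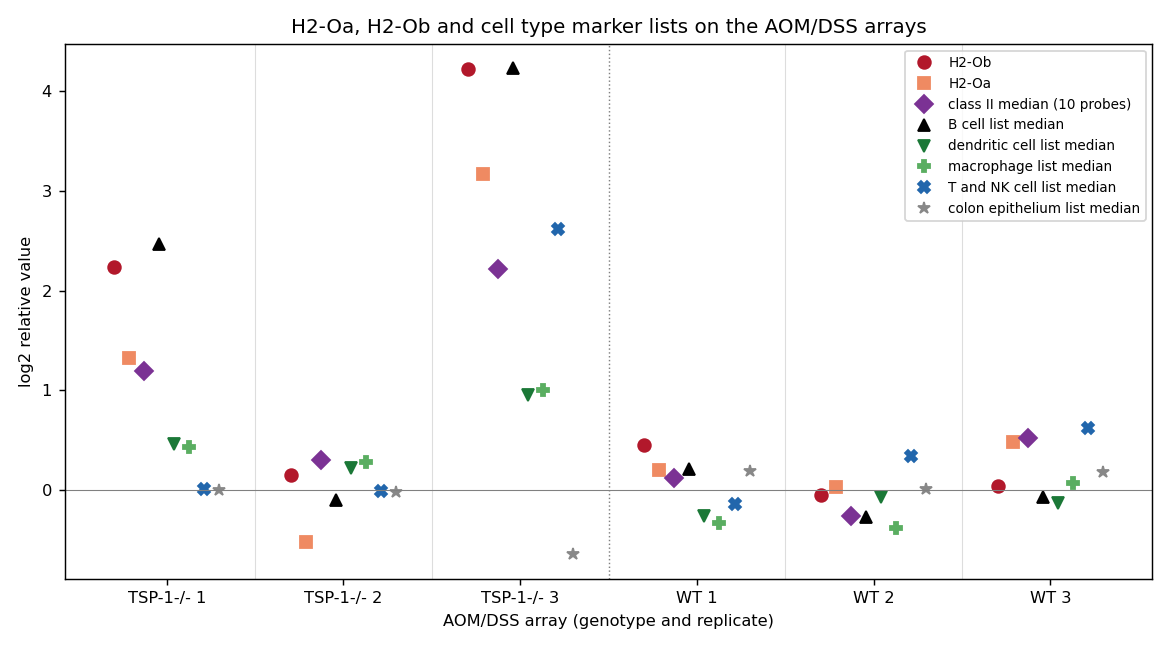
Log2 relative value (vertical axis) of H2-Ob, H2-Oa, the median of the 10 class II probes and the medians of 5 marker lists on each AOM/DSS array, TSP-1-/- arrays left of WT arrays. Each set of points is read across arrays and not against another set, since every probe has its own baseline. H2-Ob, H2-Oa and the B cell list are each highest on TSP-1-/- replicate 3 and next highest on TSP-1-/- replicate 1. The class II median and the dendritic cell and macrophage lists have the same 2 arrays highest, so this order is not particular to the B cell list.

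The class Ib genes moved in both directions. Class Ib molecules resemble class I but vary little between individuals, and many have special partners. Of the 19 class Ib probes, 2 were called higher in TSP-1-/- AOM/DSS colons (H2-M2 and H2-T24) and 2 lower (H2-Q2 and H2-Bl), beside 1.73% and 1.05% of all probes. The median log2 difference was 0.26 (range -1.85 to 1.46), with 14 of 19 differences above 0. Class I genes are near-copies of each other, so a probe may also read a neighbouring member and its gene assignment is uncertain.

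H2-M2 (probe 10450880) had the smallest adjusted p of all members. It stood at 1.94, 1.68 and 2.46 on the TSP-1-/- AOM/DSS arrays, against 0.54, 0.75 and 0.41 on the WT AOM/DSS arrays. The groups were far apart and each was tight, with means of 2.03 ± 0.40 in TSP-1-/- and 0.57 ± 0.17 in WT (SD, n = 3). H2-M2 rose by log2 1.46 (SE 0.26, 2.76-fold, adjusted p = 0.0170). On the water arrays it read -0.56, -1.04 and -1.04 in TSP-1-/- and -0.56, -0.60 and -1.45 in WT, a log2 difference of -0.0047 (SE 0.26). The gap between the genotype difference in AOM/DSS and that in water was 1.47 (SE 0.37, adjusted p = 0.228), so the difference between the 2 settings did not pass.

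H2-M2 was also the only member with all 6 AOM/DSS arrays above the median of the 12 arrays, so that all 6 water arrays lay below it. This was true of 2.02% of all probes, and the reverse, with all 6 below, of 3.99% and of 1 member, H2-M11 (probe 10445010), at -0.31, -0.31 and -0.0022 in TSP-1-/- and -0.44, -0.49 and -0.47 in WT. With 1 of 57 members (1.75%) on each side, the members were near or below the share of all probes, and H2-M2 and H2-M11 were singled out for this separation, which is therefore given with no test. An effect of AOM/DSS and one of the array set it was run in cannot be told apart.

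H2-T24 (probe 10450675) had the order of TSP-1-/- arrays seen at the class II genes. It stood at 1.06, 0.61 and 2.01 in TSP-1-/- and at -0.14, 0.14 and -0.31 in WT, and rose by log2 1.33 (SE 0.31, 2.52-fold, adjusted p = 0.0321). H2-M10.1 (probe 10450767), of a family known from the vomeronasal organ, and H2-Q5 (probe 10444821), listed by RefSeq as a transcribed pseudogene, passed the adjusted p but not the 2-fold minimum, with log2 differences of 0.74 (adjusted p = 0.0442) and 0.65 (adjusted p = 0.0456). The 6 H2-M10 genes had a median of 0.13, against 0.13 over all probes. H2-M3 (probe 10445119), which presents N-formylated bacterial peptides, gave 0.32, 0.03 and 1.24 in TSP-1-/- and 0.17, -0.20 and -0.30 in WT, an overlap, with a log2 difference of 0.64 (adjusted p = 0.124). H2-Q10 (probe 10444841), a soluble class I molecule known from liver, gave a log2 difference of -0.49 (adjusted p = 0.0686).

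H2-Bl and H2-Q2 were the 2 members called lower, and at both WT replicate 1 was the lowest WT array, as it was at no class II gene. H2-Bl (probe 10450704), a transcribed pseudogene in RefSeq, stood at -2.21, -2.36 and -3.22 in TSP-1-/- and at -2.27, -0.06 and 0.08 in WT. H2-Q2 (probe 10444802) stood at -1.46, -1.56 and -2.49 in TSP-1-/- and at -1.21, 0.07 and 0.67 in WT. For both, WT replicate 1 lay with or next to the TSP-1-/- arrays and far from WT replicates 2 and 3, and the groups overlapped for H2-Bl alone. H2-Bl fell by 1.85 on the log2 scale (SE 0.49, adjusted p = 0.0430) and H2-Q2 fell by 1.68 (SE 0.39, adjusted p = 0.0306). The same WT array stood with the TSP-1-/- arrays at 2 genes of position along the gut, Hoxb6 (-2.60, -3.25 and -3.43 in TSP-1-/-, against -3.44, 1.28 and 0.98 in WT) and Hoxd4 (-2.87, -2.61 and -2.60 in TSP-1-/-, against -3.08, 0.32 and 0.11 in WT). Both were picked after their values were seen, so their match is no test, and other Hox genes are not given here. Without WT replicate 1 the differences were -2.61 for H2-Bl (adjusted p = 0.00037) and -2.21 for H2-Q2 (adjusted p = 0.0016), and the gap to the water difference was then called for both. On the water arrays both genes overlapped between the genotypes, with log2 differences of -0.12 for H2-Bl and 0.06 for H2-Q2. The fat markers had list medians of -1.74, -1.38 and -0.94 in TSP-1-/- AOM/DSS colons, against -1.03, 0.92 and 1.40 in WT AOM/DSS colons, again with WT replicate 1 among the TSP-1-/- arrays. Cidec and Retn of that list were called lower, 2 of 7 probes, beside 1.05% of all probes. Whether fat or the sampled stretch of colon bears on these values was not tested.

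**Figure D3:**
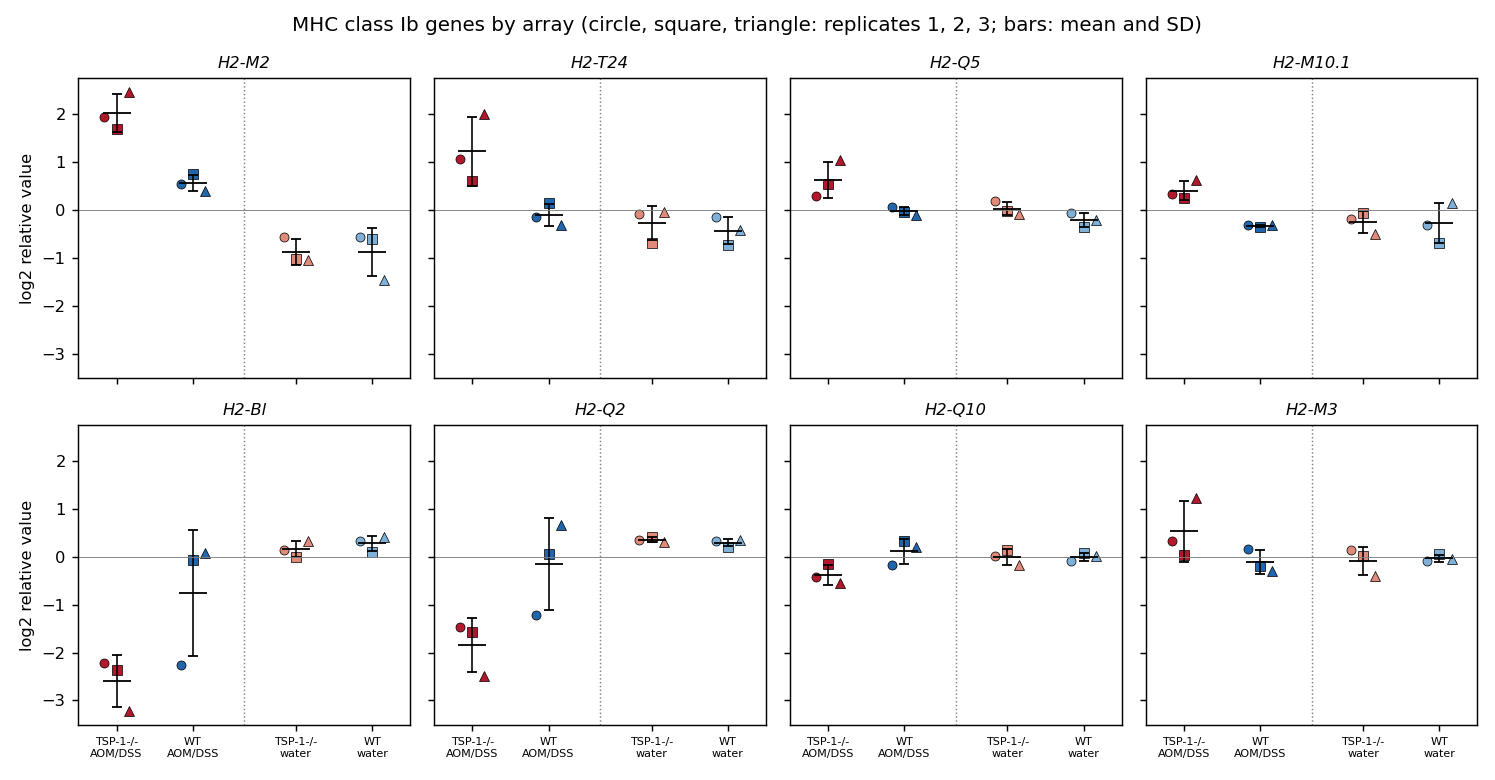
Log2 relative values (vertical axis) of 8 class Ib genes on each array, in TSP-1-/- AOM/DSS, WT AOM/DSS, TSP-1-/- water and WT water colons, with points for arrays and bars for the mean and SD of 3 arrays; the dotted line parts 2 baselines. H2-M2 separates the genotypes on the AOM/DSS arrays, and at H2-Bl and H2-Q2 the circle of WT AOM/DSS replicate 1 lies near the TSP-1-/- arrays.

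The class I peptide-loading genes showed no call in either direction. B2m (probe 10475414), the light chain of every class I molecule, stood at -0.10, -0.15 and 0.01 in TSP-1-/- AOM/DSS colons, against -0.37, 0.15 and -0.01 in WT AOM/DSS colons. The groups overlapped and the log2 difference was -0.01 (SE 0.15, adjusted p = 0.979). Tap1 (probe 10444244) and Tap2 (probe 10444268), which pair to form the peptide transporter, had log2 differences of 0.60 (SE 0.37, adjusted p = 0.270) and 0.12 (SE 0.23, adjusted p = 0.733). Tap1 read 0.25, 0.12 and 1.50 in TSP-1-/- and 0.29, -0.19 and -0.03 in WT, so that only TSP-1-/- replicate 3 lay above the WT range. Tapbp (probe 10444068), which bridges class I to the transporter, had -0.29 (SE 0.18, adjusted p = 0.271).

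None of the 3 catalytic subunits of the immunoproteasome was called. Psmb8 (probe 10444258) had a log2 difference of 0.19 (SE 0.29, adjusted p = 0.672) and Psmb9 (probe 10450145) of 0.44 (SE 0.25, adjusted p = 0.233). Psmb10 (probe 10581378) stood at -0.76, -0.27 and -0.57 in TSP-1-/-, against 0.01, -0.01 and 0.77 in WT. All 3 TSP-1-/- arrays were below all 3 WT arrays, and the log2 difference was -0.79 (SE 0.23, adjusted p = 0.0519). The 7 loading probes without Nlrc5 had a median of 0.12.

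The class Ia pseudogene H2-K2 (probe 10450069) differed by 0.22 (SE 0.14, adjusted p = 0.294). H2-Ke6 (probe 10450103) carries an H2- symbol for its place in the MHC but encodes a steroid dehydrogenase. It stood at -0.41, -0.24 and -0.32 in TSP-1-/- and at 0.03, 0.14 and 0.49 in WT, with no overlap, and its difference of -0.54 (SE 0.15, adjusted p = 0.0499) passed the p but not the 2-fold minimum.

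Nlrc5, the class I transactivator, was read by 19 probes, which share 1 gene and are not replicates. Of the 19, 18 had a higher mean in TSP-1-/- AOM/DSS colons, with a median log2 difference of 0.49 (range -0.09 to 1.46), and 10 did so without overlap (52.6%, against 20.2% of all probes). The test called 2 of 19 higher (10.5%, against 1.73% of all probes). Probe 10574135 stood at 0.27, 1.28 and 1.86 in TSP-1-/- and at -0.43, 0.20 and -0.21 in WT, and rose by log2 1.29 (SE 0.31, adjusted p = 0.0345). Probe 10574145 stood at -0.14, 1.76 and 1.32 in TSP-1-/- and at -0.42, -0.60 and -0.42 in WT, and rose by log2 1.46 (SE 0.35, adjusted p = 0.0348). TSP-1-/- replicates 2 and 3 carried both rises, and replicate 1 stayed near the WT arrays. Probe 10574163 had a like difference of 1.33 (SE 0.46, adjusted p = 0.0777) that did not pass, and probe 10574153 had the lowest, -0.09. The probes of the gene thus disagreed in size: 4 of 19 reached a 2-fold difference. The median of the 19 was 0.22, 0.30 and 0.36 on the TSP-1-/- AOM/DSS arrays, against -0.08, -0.01 and -0.40 on the WT AOM/DSS arrays.

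**Figure D4:**
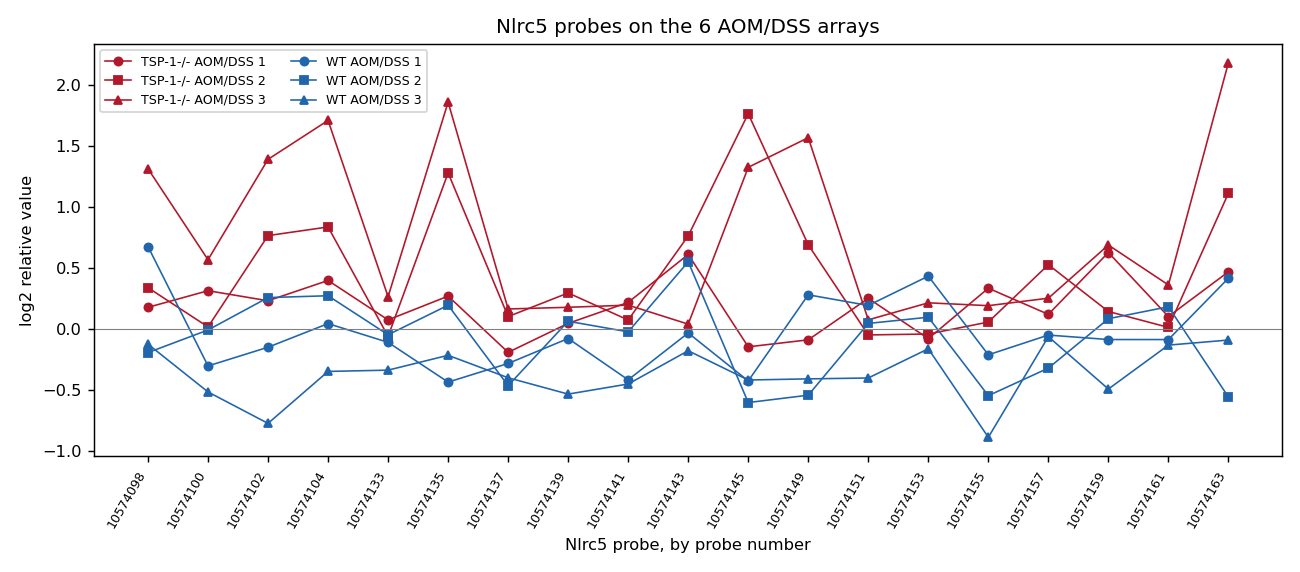
Log2 relative value (vertical axis) of the 19 Nlrc5 probes, ordered by probe number (horizontal axis), on the 3 TSP-1-/- (red) and 3 WT (blue) AOM/DSS arrays; lines join the probes of 1 array. The arrays part widely at a few probes, such as 10574135, 10574145 and 10574163, and lie together at others, such as 10574153.

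Over all 57 members, 8 were called in AOM/DSS colons (14.0%), 6 higher and 2 lower, against 2.78% of all probes (802). A p under 0.05 before adjustment was found for 35 members, as for 9327 of the 28853 probes. There were 21 members higher without overlap (36.8%) and 4 lower (7.02%), beside the 20.2% and 10.7% of all probes given above. Of the 21, 10 were probes of the single gene Nlrc5, and without its probes 11 of 38 members (28.9%) were higher and 4 (10.5%) lower without overlap. No called member stayed called whichever array was left out, and all 8 were lost without TSP-1-/- AOM/DSS replicate 3 and likewise without WT AOM/DSS replicate 3. H2-M2 and H2-T24 were each called in 10 of 12 such fits and lost without TSP-1-/- AOM/DSS replicate 3 (adjusted p = 0.0509 and 0.0778) and without WT AOM/DSS replicate 3 (0.0701 and 0.118). H2-Q2 was called in 9 of 12 and lost without TSP-1-/- AOM/DSS replicate 3 (0.0944), WT AOM/DSS replicate 2 (0.0617) and WT AOM/DSS replicate 3 (0.109). The others were called in 6 (Nlrc5 probe 10574135), 4 (Nlrc5 probe 10574145), 2 (H2-Eb2), 2 (H2-Bl) and 1 (H2-Aa) of the 12, and their highest adjusted p-values were 0.115, 0.108, 0.140, 0.161 and 0.120.

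The 30 probes of a wider list of loading and interferon gamma pathway genes, among them Calr, Canx, Ctss, Jak1 and the factors that bind the X and Y boxes, gave 0 calls in either direction and a median of 0.04. The farthest were Nfya (0.54, adjusted p = 0.0717), a subunit of NF-Y, Rfx5 (0.50, adjusted p = 0.0614), of the RFX complex, and Ifng (0.46, adjusted p = 0.178), the main inducer of MHC genes.

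In water colons the genotypes did not differ by call at any member. No probe of the array was called higher (0%) or lower (0%) in TSP-1-/- water against WT water by limma, and a p under 0.05 before adjustment was found for 288 of 28815 probes and for 0 of the 57 members. The fit shared 1 spread per probe, though the median pooled SD of members was 0.18 on water and 0.31 on AOM/DSS arrays. Sharing tends to widen the SE in water and to narrow it in AOM/DSS. With only the 2 groups in the fit, 0 members were called in water and 0 in AOM/DSS. Member differences ran from -0.23 (Nlrc5 probe 10574102) to 0.62 (Nlrc5 probe 10574163), and 1 member, Nlrc5 probe 10574145 (log2 0.30), was higher without overlap, against 2.29% of all probes higher and 2.88% lower. The class II median was 0.04, from -0.17 (H2-Oa) to 0.37 (H2-Eb1), and that of class Ib was -0.0047, from -0.21 (H2-M1) to 0.24 (H2-Q5). Cd74 stood at -0.32, -0.41 and -0.39 in TSP-1-/- water colons, against -0.24, -1.07 and -0.66 in WT water colons, and H2-Ob at -0.27, -0.07 and -0.30 in TSP-1-/-, against 0.02, -0.10 and -0.14 in WT. The genotypes overlapped at both genes, and at neither did a TSP-1-/- water array stand out as TSP-1-/- AOM/DSS replicate 3 did. TSP-1-/- water replicate 1 did have a higher list median of the pancreas genes, 1.22 against -0.03 to 0.07 on the other water arrays. It was not the highest water array for Clps (1.14, against 1.73 on WT water replicate 1). Nor was it for Cela1 (1.72, against 2.04 on TSP-1-/- water replicate 2), but it was for the other genes of the list.

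The genotype difference in AOM/DSS was set against that in water directly. This gap was called for 0.00694% of all probes (2 of 28815) and for 0 of the 57 members, of which 20 had a p under 0.05 before adjustment, as did 4431 of all probes. The class II median of the gap was 0.97 (range 0.60 to 2.19), above 0 for 10 of 10 probes, against 0.13 over all probes. The widest were H2-Ob (2.19, SE 0.98, adjusted p = 0.317) and H2-Eb2 (1.98, SE 0.67, adjusted p = 0.251). No single class II probe therefore passed the test for a difference particular to AOM/DSS colons, and the class as a whole was not tested.

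**Figure D5:**
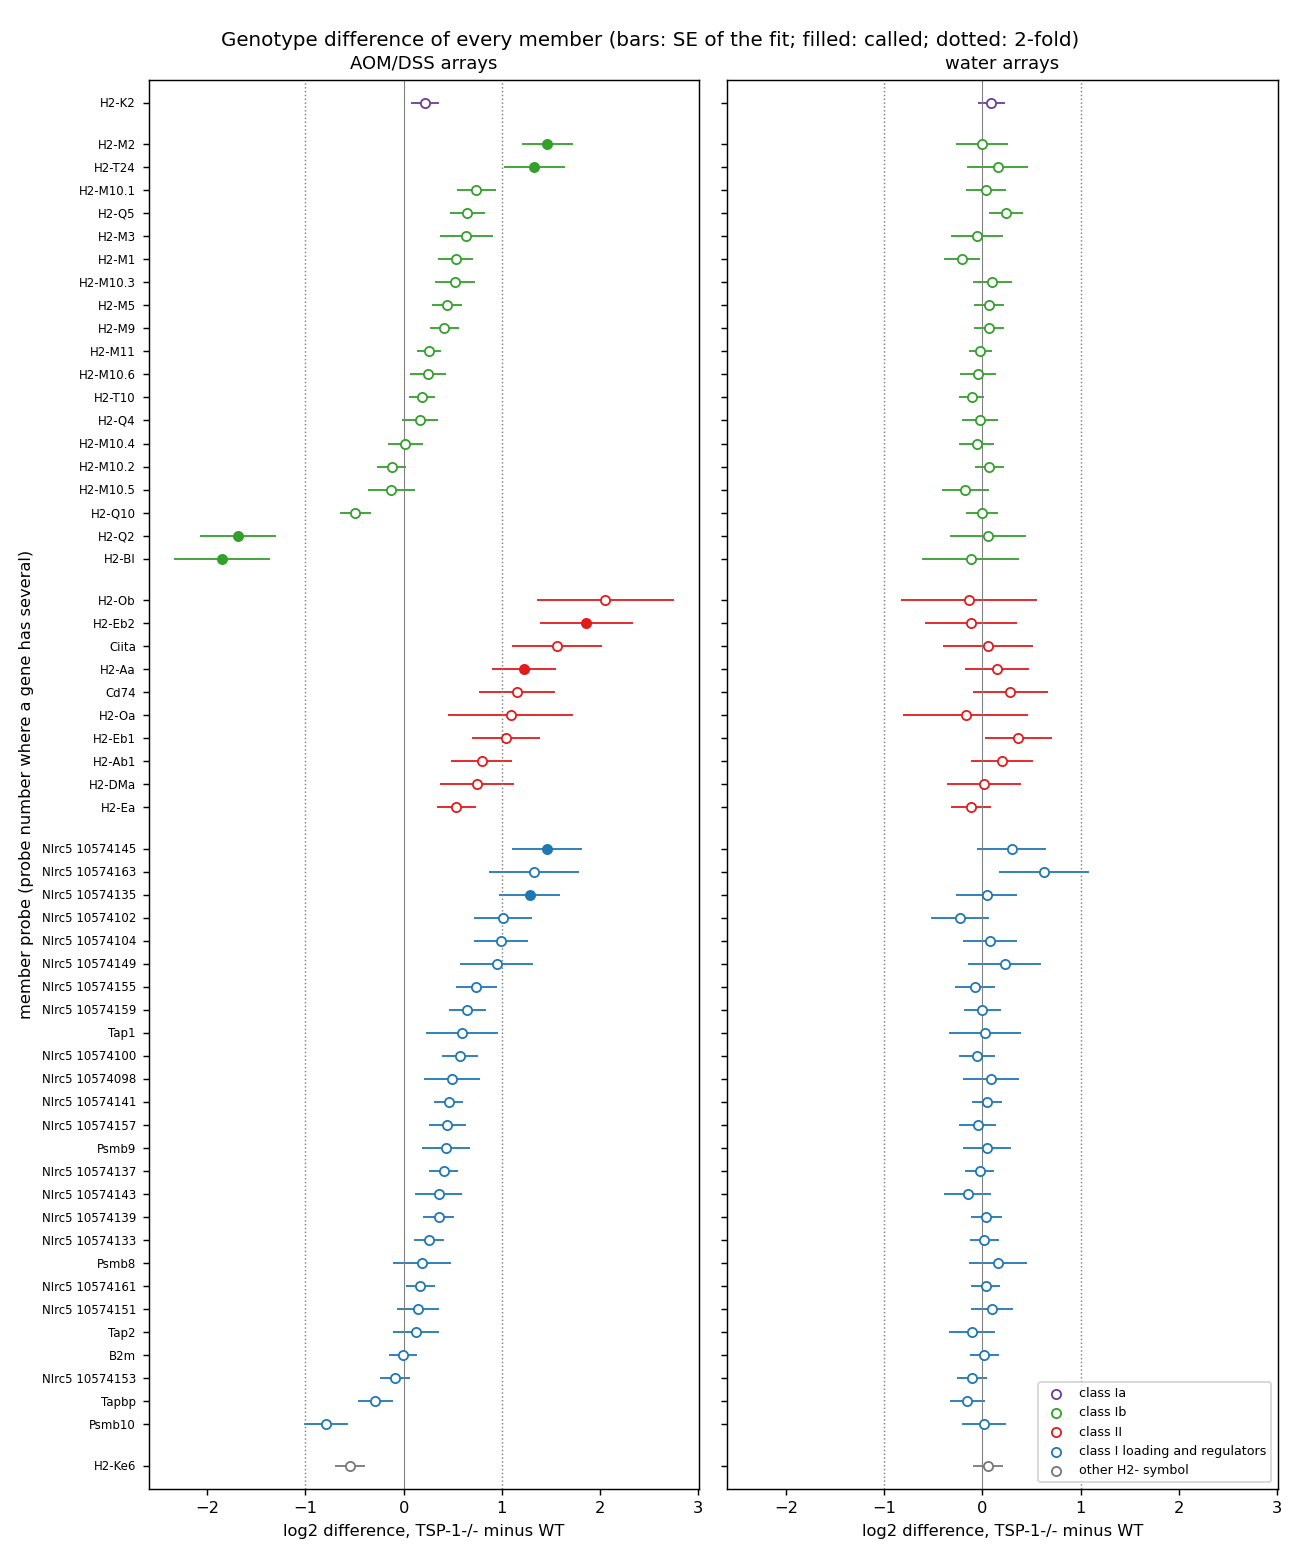
Log2 difference, TSP-1-/- minus WT (horizontal axis), of every member in AOM/DSS colons (left) and water colons (right), grouped by class, with bars for the SE of the fit. Filled points passed the test, dotted lines mark a 2-fold difference, and 8 members are filled in AOM/DSS colons and 0 in water colons.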

How the data were processed

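The arrays were Affymetrix MoGene ST, 12 in all and 3 per group. Per the methods, the authors summarised probe signals with PLIER16, quantile normalized them and deposited log2 values set relative to each probe's median over all 12 samples. The AOM/DSS arrays are on that baseline: of 377 genes of a supplementary table, 376 matched exactly 1 probe within 0.0001, and 0 matched on the water arrays, whose baseline is not known. No absolute signal is left, so no filter on dim probes could be applied. The deposited log2 values were used unchanged. Of the 28853 probes, 21789 have 1 gene symbol, 1621 several and 5443 none, and 38 hold no value on the water arrays. A probe with several symbols named no gene.

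Genotypes were compared with limma 3.58.1 in R 4.3.3 (lmFit, contrasts.fit, eBayes) with 1 mean per group over 12 arrays, so that the groups share 1 estimate of spread per probe. The spread itself was wider on the AOM/DSS arrays (median pooled SD over all probes 0.24) than on the water arrays (0.17). A call needed a 2-fold difference and an adjusted p (Benjamini-Hochberg) below 0.05. The methods used an analysis of variance over all conditions, after filters on signal and on variation between replicates. The analysis of variance run here as an alternative used no such filters. It tested each genotype contrast with unmoderated variances, so it is not the authors' test. The labels call the arrays biological replicates. With 3 against 3 arrays, an exact permutation test of a single gene cannot go below p = 0.1, so none is given. The number of arrays and the spread between them set the precision. The code was tested on simulated data with known changes. AOM/DSS was not fitted against water. Same-numbered arrays correlated at -0.04 to 0.03 (AOM/DSS) and 0.09 to 0.40 (water) in their deviations from the group means. The water correlations were all positive. Since the labels state no pairing of mice by number, the main fit used no replicate block, and a fit with such a block is given as an alternative.

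Described with values are members called in any comparison, the largest and smallest difference of each class, the main presentation genes by name, and called marker genes. H2-M3, H2-M10.1, H2-M11, H2-Q5, H2-Q10, H2-Ke6, Hoxb6 and Hoxd4 were added after their values were seen. The members, gene lists, motif and alternatives were chosen with earlier results of these data known. Tables and plots used Python 3.11.15, pandas 2.3.3, numpy 2.4.6 and matplotlib 3.10.9. Promoter sequences are RefSeq's (GRCm38.p6).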

Additional observations from a re-analysis of the deposited data

How the results depend on the processing

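The 8 calls in AOM/DSS colons depended on the settings. There were 10 with probes of 1 symbol only, 7 with each array centred on its median, 13 with no fold minimum, 3 after quantile normalization within each array set, 2 with array weights, and 0 after quantile normalization of the 12 arrays again, with only the 2 groups in the fit, and by analysis of variance without moderated variances. Over all probes these last 3 settings called 183, 6 and 47, against 802. Leaving out 1 array gave 0 to 12 calls, with 0 when TSP-1-/- AOM/DSS replicate 3 was removed (170 over all probes), 0 when WT AOM/DSS replicate 3 was (104), and 12 when TSP-1-/- AOM/DSS replicate 2 was. With TSP-1-/- AOM/DSS replicate 3 and WT AOM/DSS replicate 1 left out together, an alternative added after the values were seen, 3 members were called (H2-M2, H2-Q2 and H2-Bl). With the replicate number as a block, 6 were called, all higher, 3 of them shared with the 8. Gained were Cd74 (adjusted p = 0.0305), Ciita (0.0418) and H2-Eb1 (0.0423), while H2-Q2 (adjusted p = 0.0645), H2-Bl (0.0711), H2-Eb2 (0.0716), H2-T24 (0.0516) and Nlrc5 probe 10574145 (0.0529) were lost. Same-numbered arrays are not known to be paired, and an array correlated best with its own number in 2 of 6 AOM/DSS and 5 of 6 water arrays.

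All 10 class II differences were above 0 in each of the 11 alternatives that alter them, while another 10 (the 6 water arrays left out in turn among them) leave these differences as they are and say nothing of their stability. Their median of 1.12 ran from 0.68 (without TSP-1-/- AOM/DSS replicate 3) to 1.51 (without TSP-1-/- AOM/DSS replicate 2) with 1 array left out, and was lowest, 0.46, under renewed quantile normalization of all 12, which also gave 0.27 for class I loading and regulators. No member was called in water in any alternative, and over all probes 1 was called without WT water replicate 3. For the gap between both genotype differences, 0 to 2 members were called with 1 array left out: H2-Ob and H2-Eb2 without TSP-1-/- AOM/DSS replicate 2, H2-Q2 and H2-Bl with WT AOM/DSS replicate 1 removed, and 1 Nlrc5 probe if TSP-1-/- AOM/DSS replicate 1 was removed, with 2 (H2-Q2 and H2-Bl) when TSP-1-/- AOM/DSS replicate 3 and WT AOM/DSS replicate 1 were both out. The median gap moved to 0.44 for class II under the same renewed normalization, and for class I loading and regulators from 0.42 to 0.29 with array weights, 0.20 and 0.30 after both quantile normalizations, and 0.27 to 0.56 with 1 array left out. The members wholly on 1 side of the 12-array median numbered 2, and 2 to 7 with 1 array left out.

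Over the 3 comparisons, 117 values of members turned in sign under an alternative, all of them uncalled and at most 0.34 in size. Of these, 7 also moved by at least 1 SD between replicates and are given here. H2-K2, alone in class Ia, had a gap of -0.11 after renewed quantile normalization of all 12 and -0.075 within each set. Nlrc5 probe 10574161 had -0.054 and -0.034 under these settings, and probe 10574153 had -0.16 within each set. Tap2 had a difference of -0.33 and a gap of -0.22 with the same 2 arrays out. The cause was not tested. The number of arrays, 3 per group, limits the precision, and signal over background cannot be read from relative values.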

Other observations

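A further 10 probes carry several symbols with at least 1 of those followed here, among them all probes for H2-K1 and H2-D1, and were named for none of their genes. Their log2 differences in AOM/DSS colons ran from -3.05 to 2.21, with 3 of 10 called, against 2.78% of all probes. In water colons they ran from -0.15 to 0.45, with 0 of 10 called.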
